A study of Homo sapiens with 11 samples.

Results

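The cell cycle and DNA replication genes are a set of 35 genes out of 35303 genes in the deposited count table. They were chosen by gene symbol, with earlier results of these data known. All 35 were among the 16117 genes that passed the filter on low counts and were tested. They fall into 13 genes of the G1/S switch and of DNA replication (MCM2, MCM3, MCM4, MCM5, MCM6, MCM7, PCNA, RRM2, TYMS, E2F1, ASF1B, CCNE1 and CCNE2) and 22 genes of G2 and mitosis (MKI67, TOP2A, CCNA2, CCNB1, CCNB2, CDK1, CDC20, CDC25C, PLK1, AURKA, AURKB, BUB1, BUB1B, BIRC5, CENPE, CENPF, KIF11, KIF20A, TTK, NUSAP1, TPX2 and UBE2C). The RNA came from LX-2, an established human cell line derived from stellate cells, which deposit the fibrous matrix of a scarred liver once activated, spelled Lx2 in the labels, which give the genotype as WT. All cultures were in DMEM with 10% FBS. Cells received HIV-1 of strain BaL (multiplicity of infection, MOI, of 0.1) together with 1 ug per ml lipoteichoic acid (LTA, a cell wall polymer of Gram-positive bacteria), the same dose of virus without LTA, or phosphate-buffered saline (PBS), each for 24 h. Every group had 3 libraries. The labels use the replicate number as a batch number, and each of the 3 batches thus holds 1 library of each treatment. LTA without virus was not analysed here. Nothing states that the libraries of a group came from separate cultures, so p-values capture the variation among these libraries alone, and that may be technical.

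Dividing cells read these genes in waves. In late G1 the E2F factors, held back until then by the retinoblastoma family, switch on the genes that load and fire replication origins and supply nucleotides. Later, in G2 and mitosis, the MuvB complex with B-MYB and FOXM1 switches on the genes of mitotic entry, spindle assembly and chromosome segregation, mostly through promoter elements called CHR (cell cycle genes homology region) and CCAAT boxes. In resting cells the DREAM complex keeps both groups off. Stellate cells are largely quiescent in healthy liver and enter the cycle when activated, whereas LX-2 cells divide in culture.

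The promoters of the 3 members that rose most and the 3 that fell most in batch 3 are shown here as examples. They were picked by those fold changes. The 3 that rose are all genes of G2 and mitosis and the 3 that fell are all replication genes. Class and direction thus cannot be told apart among them. Each sequence is 5′ to 3′ on the strand of its gene, covers 160 bases before and 20 bases after the annotated start, and comes from RefSeq on build GRCh38.p14. Capitals mark a CCAAT box (CCAAT), a CHR (TTTGAA) or an E2F site (TTTCGCGC, TTTGGCGC, TTTCCCGC or TTTGCCGC) on either strand. The 3 members with the largest rise in batch 3 were KIF20A at chr5:138178952-138179131 on the plus strand, CCNB1 at chr5:69166990-69167169 on the plus strand and CDC25C at chr5:138338336-138338515 on the minus strand.
KIF20A: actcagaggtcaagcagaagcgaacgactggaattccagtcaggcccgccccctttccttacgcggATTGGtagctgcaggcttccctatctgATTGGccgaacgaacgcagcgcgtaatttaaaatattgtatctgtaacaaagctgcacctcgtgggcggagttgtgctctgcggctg
CCNB1: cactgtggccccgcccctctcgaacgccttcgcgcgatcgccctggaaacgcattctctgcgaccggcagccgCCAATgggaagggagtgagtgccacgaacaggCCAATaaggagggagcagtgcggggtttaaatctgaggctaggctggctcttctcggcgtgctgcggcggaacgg
CDC25C: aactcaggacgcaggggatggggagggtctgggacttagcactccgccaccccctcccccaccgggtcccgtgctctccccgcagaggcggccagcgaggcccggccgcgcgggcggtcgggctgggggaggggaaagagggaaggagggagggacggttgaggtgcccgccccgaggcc
The 3 members with the largest fall were TYMS at chr18:657493-657672 on the plus strand, MCM2 at chr3:127598251-127598430 on the plus strand and MCM6 at chr2:135876424-135876603 on the minus strand.
TYMS: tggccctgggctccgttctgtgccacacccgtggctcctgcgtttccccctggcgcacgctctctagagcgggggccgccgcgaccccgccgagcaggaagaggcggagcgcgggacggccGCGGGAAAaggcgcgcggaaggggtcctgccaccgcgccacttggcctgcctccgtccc
MCM2: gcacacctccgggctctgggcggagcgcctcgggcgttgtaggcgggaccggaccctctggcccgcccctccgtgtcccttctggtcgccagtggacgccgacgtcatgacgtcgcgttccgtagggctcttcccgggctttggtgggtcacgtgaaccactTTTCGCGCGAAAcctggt
MCM6: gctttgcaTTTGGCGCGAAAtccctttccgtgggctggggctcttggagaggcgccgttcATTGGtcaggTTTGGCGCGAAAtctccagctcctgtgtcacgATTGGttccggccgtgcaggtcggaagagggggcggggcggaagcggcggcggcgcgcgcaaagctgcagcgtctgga
KIF20A and CCNB1 carry 2 CCAAT boxes each and no E2F site, and CDC25C holds none of the motifs in this window. TYMS carries 1 E2F site, MCM2 a stretch that reads as E2F sites on both strands where the letters overlap, and MCM6 a pair of such stretches beside CCAAT boxes.

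The libraries held 50.6 to 90.6 M counts. Each member had at least 345 counts in every library (the lowest was NUSAP1, and the highest TOP2A with 113272), and 33 members had at least 1000 counts in each. Collagen and matrix markers of LX-2 cells were present, but DES and GFAP stayed below 1 CPM (counts per M counts, on TMM-scaled library sizes) and LRAT was at 0 in 7 of 9 libraries. Batch 3 differed widely from the rest: 71.2% of all tested genes differed between batch 3 and batches 1 and 2, and results on treatments are therefore given within batches.

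Per kilobase of the main transcript, so that genes can be compared, PCNA, the sliding clamp of the replication fork, was the most abundant member with a median of 267 RPKM (CPM per kilobase,  249 to 292 over 9 libraries). CCNB1, the cyclin that drives mitotic entry with CDK1, followed with a median of 252 RPKM and the widest range, 214 to 443. TOP2A, which untangles sister chromatids, had 212 RPKM (202 to 250), and MCM7, a subunit of the replicative helicase, 173 RPKM (168 to 189). The ranges of PCNA and CCNB1 overlapped, as did those of CCNB1 and TOP2A, whereas every value of MCM7 was below every value of TOP2A. At the low end, CCNE1, a G1/S cyclin, had 4.79 RPKM (3.82 to 5.32) and NUSAP1, a spindle microtubule protein, 3.62 RPKM (2.64 to 4.58). The NUSAP1 level carries a further limit, since 86.8% of its exon bases on hg19 overlap other genes (OIP5 among them) and the strand setting of the counting is not given in the sources used here. TYMS (47.9%, with ENOSF1 and TYMSOS), CCNE2 (37.1%), MCM2 (23.6%), PLK1 (12.8%) and BUB1B (10.2%) also overlap other genes, while 24 members overlap none.

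HIV-1 with or without LTA left the 35 genes close to their level in PBS. No member passed an adjusted p of 0.05 in HIV-1+LTA against HIV-1, in HIV-1+LTA against PBS or in HIV-1 against PBS (edgeR quasi-likelihood test with batch and group, Benjamini-Hochberg adjustment over 16117 genes). Of all tested genes 0% passed in each of these comparisons, so the count by itself says little about the members. The 3 comparisons share libraries and are not independent. What the intervals do give is a bound: in each comparison the 95% interval of the fold change lay within 1.5-fold for all 35 members, against 71.7% of all tested genes in HIV-1+LTA against HIV-1, 71.8% in HIV-1+LTA against PBS and 75.1% in HIV-1 against PBS. These are abundant genes, and no test was made of whether they differ from other genes of like level.

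**Figure D1:**
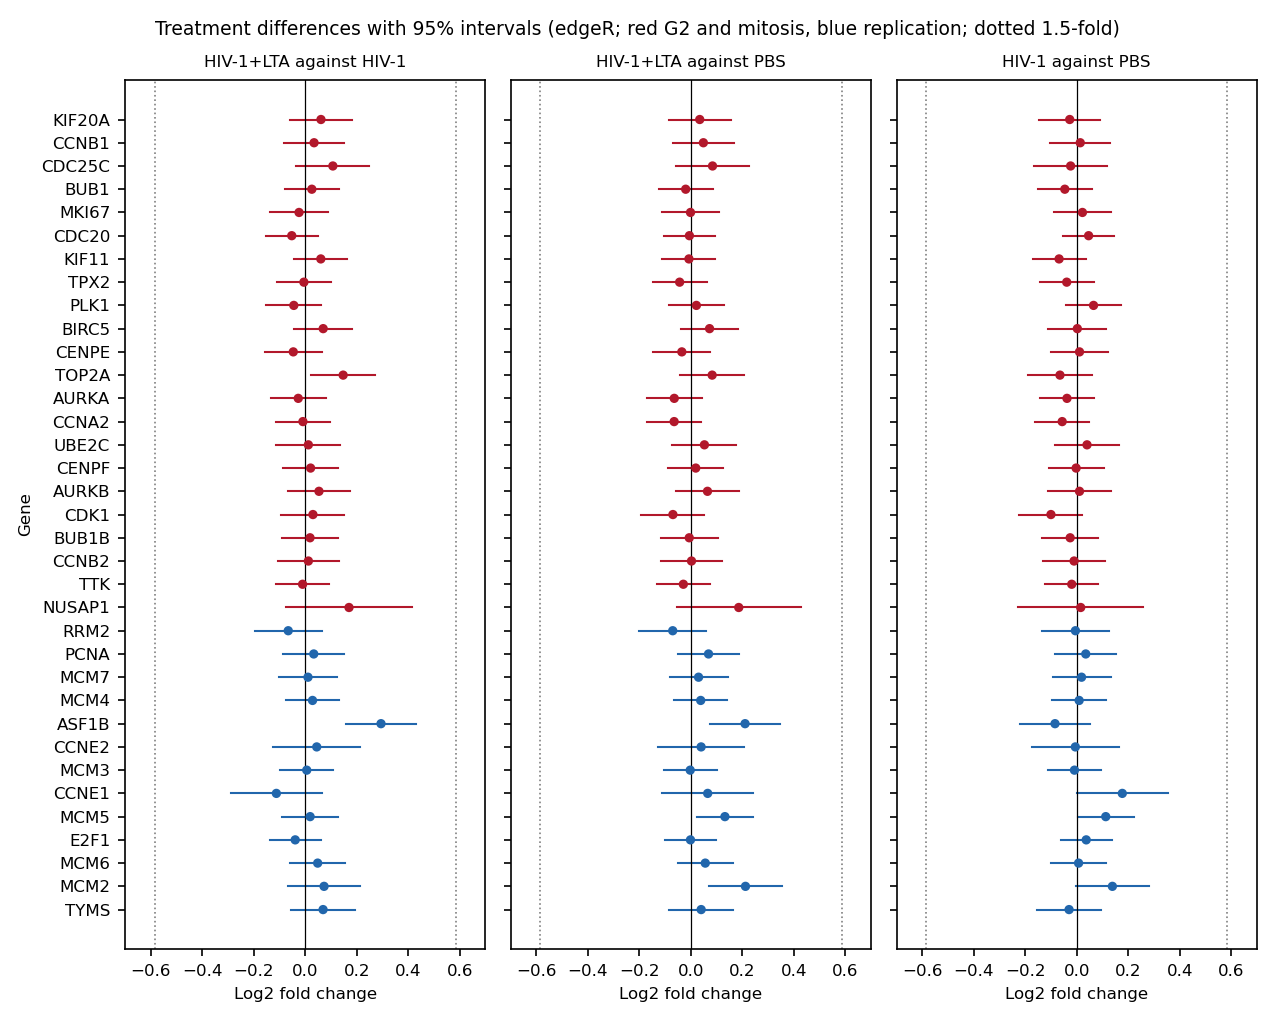
Log2 fold change (x axis) of each of the 35 genes (y axis) in HIV-1+LTA against HIV-1, HIV-1+LTA against PBS and HIV-1 against PBS, with 95% intervals from the edgeR fit; red marks G2 and mitosis genes, blue replication genes, and dotted lines 1.5-fold. All 35 intervals lie between the dotted lines in each panel, and ASF1B at 0.29 in HIV-1+LTA against HIV-1 is the farthest from 0.

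Among the replication genes, ASF1B had the largest difference with LTA. It encodes a histone chaperone that hands new histones H3 and H4 to the replication fork. ASF1B had 61.3, 71.1 and 62.0 CPM in the HIV-1+LTA libraries of batches 1, 2 and 3, against 55.9, 56.5 and 46.4 CPM in the HIV-1 libraries and 58.6, 61.7 and 48.3 CPM in the PBS libraries. Every HIV-1+LTA library was above every HIV-1 library, which was the case, in either direction, for 1 of 35 members and for 4.37% of all genes; HIV-1+LTA and PBS libraries of ASF1B overlapped. The like count was 1 member in HIV-1+LTA against PBS (AURKB, 74.8 to 79.3 CPM against 72.2 to 73.6 CPM, beside 3.82% of all genes) and 0 in HIV-1 against PBS (2.74%). Against HIV-1 alone the log2 fold change with LTA was 0.29 (SE 0.0627, edgeR adjusted p = 0.171), and against PBS it was 0.21 (SE 0.0624, edgeR adjusted p = 0.205). In DESeq2 with batch and group ASF1B was the only member that passed, in HIV-1+LTA against HIV-1 (log2 fold change 0.30, SE 0.0743, DESeq2 adjusted p = 0.00971), where 1.34% of genes passed as higher and 0.485% as lower (1.82% in all). DESeq2 called no member in HIV-1+LTA against PBS (0.964% of genes higher, 0.964% lower, 1.93% in all) or in HIV-1 against PBS (0.005% higher, 0.01% lower, 0.015% in all). Within batches 1, 2 and 3 ASF1B was higher with LTA than with HIV-1 alone by 0.13, 0.33 and 0.42 in log2 CPM. Against PBS, whose libraries overlapped across batches, it was higher within the same batches by 0.06, 0.21 and 0.36.

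The 6 MCM genes, which encode the ring of the replicative helicase, differed little by treatment. MCM2 had 160, 196 and 141 CPM in HIV-1+LTA libraries of batches 1, 2 and 3, against 159, 189 and 127 CPM in HIV-1 libraries and 152, 178 and 105 CPM in PBS libraries. The groups overlapped because the batches differ, but within each batch the order was the same, with HIV-1+LTA highest and PBS lowest. The log2 fold change of MCM2 in HIV-1+LTA against PBS was 0.21 (SE 0.0641, edgeR adjusted p = 0.205), and the within-batch differences in log2 CPM were 0.07, 0.14 and 0.43. MCM5 followed with 0.13 in HIV-1+LTA against PBS and 0.11 in HIV-1 against PBS, at adjusted p-values of 0.235 and 0.946 in edgeR. MCM3, MCM4, MCM6 and MCM7 had log2 fold changes between −0.01 and 0.06 in all 3 comparisons.

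Of the remaining replication genes, CCNE1, which activates CDK2 at the G1/S boundary, had the largest value in HIV-1 against PBS, 0.18 (SE 0.0805, edgeR adjusted p = 0.946), from 10.4, 10.4 and 8.63 CPM in HIV-1 libraries of batches 1, 2 and 3 and 9.37, 9.23 and 7.46 CPM in PBS libraries. E2F1, the factor that switches on the G1/S wave, differed by −0.04, −0.0019 and 0.04 on the log2 scale in HIV-1+LTA against HIV-1, HIV-1+LTA against PBS and HIV-1 against PBS. RRM2, the small subunit of ribonucleotide reductase, TYMS, which makes thymidylate, and PCNA stayed between −0.07 and 0.07 in all 3.

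Among the 22 genes of G2 and mitosis the median log2 fold change was 0.02 in HIV-1+LTA against HIV-1, 0.00017 in HIV-1+LTA against PBS and −0.01 in HIV-1 against PBS, beside −0.0038, 0.0016 and −0.0015 for all genes. Over the 13 replication genes it was 0.03, 0.04 and 0.01 in the same order. NUSAP1, at the low level and with the exon overlap given above, had the highest value of the 22 in HIV-1+LTA against HIV-1, 0.17, but the sign differed between batches 1, 2 and 3 (−0.15, 0.30 and 0.37 in log2 CPM). TOP2A, for which the groups overlapped, had 1208, 1329 and 1426 CPM in HIV-1+LTA libraries of batches 1, 2 and 3, against 1193, 1149 and 1230 CPM in HIV-1 libraries. Its log2 fold change was 0.15 (SE 0.0569, edgeR adjusted p = 0.262), with 0.02, 0.21 and 0.21 in the 3 batches. MKI67, the proliferation antigen Ki-67, had −0.02 in HIV-1+LTA against HIV-1, −0.0018 in HIV-1+LTA against PBS and 0.02 in HIV-1 against PBS. CDK1, the kinase of mitotic entry, had the lowest value of the 22 in HIV-1 against PBS, −0.10 (SE 0.0559, edgeR adjusted p = 0.946), and here too the sign differed between batches 1, 2 and 3 (0.04, −0.11 and −0.23 in log2 CPM).

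At an unadjusted p below 0.05, 2 members stood in HIV-1+LTA against HIV-1 (ASF1B and TOP2A, beside 15.4% of all genes), 3 in HIV-1+LTA against PBS (MCM2, MCM5 and ASF1B, beside 16.8%) and 2 in HIV-1 against PBS (MCM5 and CCNE1, beside 4.21%). The calls depended on the setting. With all 9 libraries but no filter on low counts, edgeR called ASF1B higher with LTA over HIV-1 alone and MCM2 and ASF1B higher over PBS. Without HIV-1+LTA replicate 1, edgeR called ASF1B and TOP2A higher with LTA over HIV-1 alone (0.37 and 0.20, adjusted p = 0.000798 and 0.0178), together with 1155 genes higher and 1235 lower. In HIV-1+LTA against PBS it then called MCM2 and ASF1B (0.26 and 0.29, adjusted p = 0.0142 and 0.0042), together with 1237 genes higher and 1411 lower. Without the whole of batch 1 the same members passed in both comparisons. The cause of these changes was not tested. Across the 35 members the value in HIV-1 against PBS correlated with the GC content of the main transcript (r = 0.52, rho = 0.54), as it did, more weakly, across 15498 tested genes with a value (r = 0.20, rho = 0.33). For the members r was −0.015 in HIV-1+LTA against HIV-1, 0.40 in HIV-1+LTA against PBS and 0.48 in batch 2 against batch 1. These are descriptions across genes, which are not independent, and the part of base composition was not tested. The 13 mitochondrially encoded RNAs, a sign of RNA quality, were all above 0 in HIV-1+LTA against HIV-1 (median 0.18). All 13 were below 0 in HIV-1 against PBS (median −0.21). None passed in edgeR, but 9 of the 13 had an unadjusted edgeR p below 0.05 in each of these comparisons. The share of all genes below it was 15.4% and 4.21%, as given above. DESeq2 called 2 of the 13 as raised when LTA was added to the virus (lowest DESeq2 adjusted p = 0.0184). It called 0 of them in HIV-1 against PBS. The part of these RNAs in the members' values was not tested.

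The authors' deposited table listed all 35 members. Its log2 fold changes ran from −0.08 (RRM2) to 0.20 (MCM2), with 20 above 0, and no member passed its adjusted p of 0.05; the lowest adjusted p in the authors' deposited table was 0.0985, for MCM2. That table called 236 of 19990 genes, and its header names no comparison. All of its fold changes were within 0.01 of a DESeq2 fit of HIV-1+LTA against PBS with batch and group.

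The difference between batch 3 and batches 1 and 2 was far larger than that between treatments. With TMM scaling most replication genes fell while most genes of G2 and mitosis rose. The second part depends on the scaling: with library totals alone 9 members rose, RRM2 among them, and most genes of G2 and mitosis did not. In that setting 17 members fell, and 26.5% of all genes rose and 45.7% fell, so the count of members that rose was near the background. In batch 3 against batches 1 and 2, 14 members rose (35.2% of all genes did), 14 fell (36% of all genes) and 7 did not pass; 71.2% of all genes passed either way, so the members' share, 28 of 35, was near the background. At an unadjusted p below 0.05 stood 29 members, beside 73.2% of all genes. DESeq2 also called 14 members higher and 14 lower, beside 28% and 28.9% of genes (56.8% in all). Of the 13 replication genes, 1 rose (RRM2), 9 fell and 3 did not pass (MCM4, MCM7 and PCNA), with a median log2 fold change of −0.31. Of the 22 genes of G2 and mitosis, 13 rose, 5 fell (CCNB2, CDK1, BUB1B, TTK and NUSAP1) and 4 did not pass (CCNA2, AURKB, CENPF and UBE2C), with a median of 0.14. The median over all genes was −0.01. The members' median absolute log2 fold change was 0.31, against 0.44 over all genes. In size 4 of 35 members (11.4%) were past 0.5, against 45% of all genes. The members are abundant genes, and no comparison was made with genes of like level. In whole cultures, more cells in a stage of the cycle and more RNA per cell cannot be told apart. The labels do not say what a batch is, batch 3 is 1 batch, and the p-values measure the spread between libraries, not between batches.

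**Figure D2:**
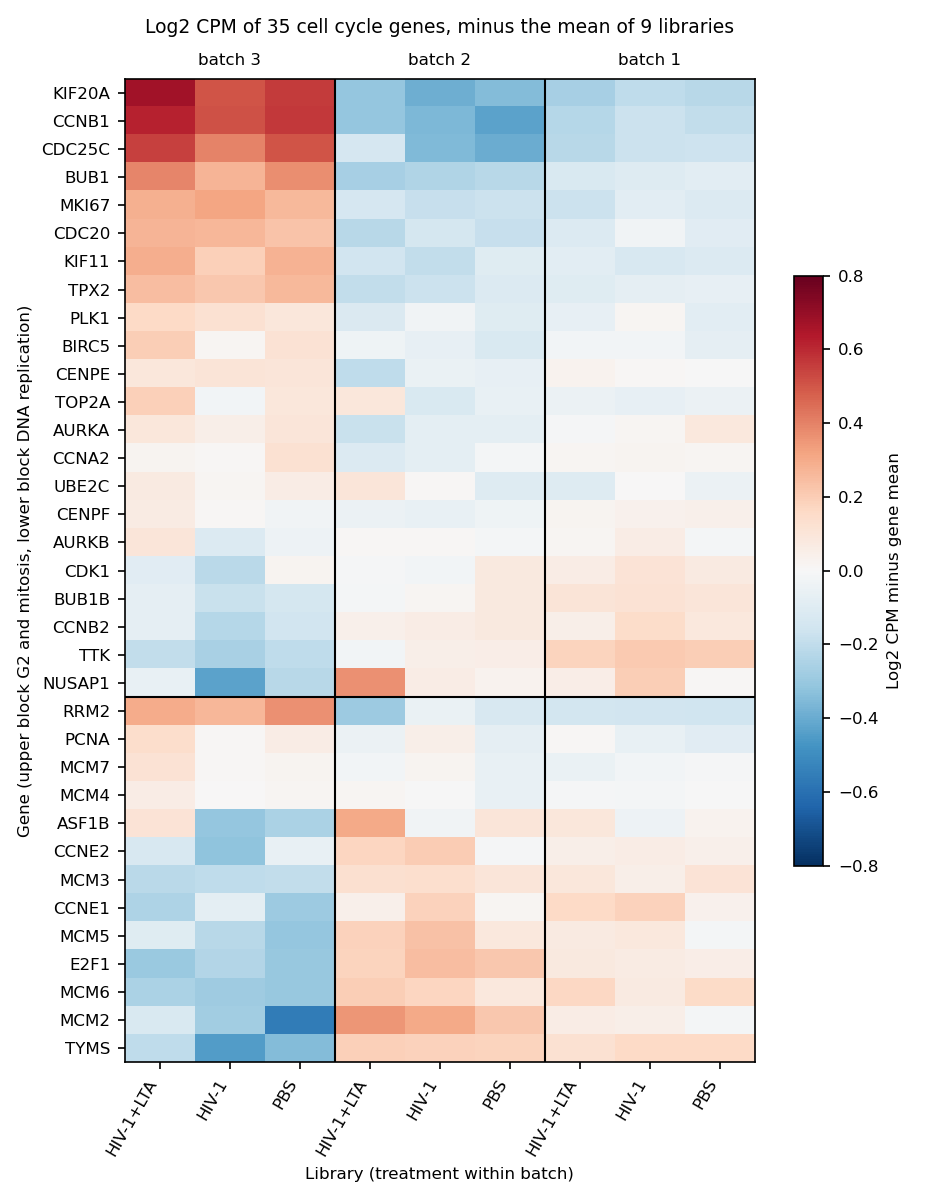
Log2 CPM of each of the 35 genes (rows) in each of 9 libraries (columns, grouped by batch and, within it, HIV-1+LTA, HIV-1 and PBS), minus the gene's mean over the libraries; red is above and blue below that mean. The 3 columns of batch 3 are red for most of the upper block (G2 and mitosis, KIF20A and CCNB1 most) and blue for most of the lower block (replication, TYMS and MCM2 most), whatever the treatment.

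KIF20A, a kinesin of the central spindle needed for cytokinesis, rose most. It had 754, 671 and 697 CPM in the HIV-1+LTA, HIV-1 and PBS libraries of batch 3, against 361 to 412 CPM (median 388) in the 6 libraries of batches 1 and 2. The log2 fold change was 0.87 (SE 0.0461, edgeR adjusted p = 1.03e-08), a 1.82-fold difference with no overlap between the groups. CCNB1 had 899, 832 and 866 CPM in batch 3, against 435 to 521 CPM (median 486) in batches 1 and 2, a 1.80-fold rise (log2 0.85, SE 0.0452, edgeR adjusted p = 1.07e-08). CDC25C, the phosphatase that activates CDK1, had 75.3, 67.8 and 73.0 CPM in batch 3, against 39.2 to 46.9 CPM (median 45.0) in batches 1 and 2 (log2 0.72, SE 0.0549, edgeR adjusted p = 2.11e-07). In each of these genes every batch 3 library was above every other library, and the HIV-1+LTA library was the highest of the 3.

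Kinetochore and checkpoint genes split. BUB1, a checkpoint kinase at the kinetochore, had 276, 255 and 273 CPM in batch 3, against 176 to 199 CPM (median 188) in batches 1 and 2, a log2 fold change of 0.52. BUB1B, which encodes the checkpoint protein BUBR1, had 233, 217 and 222 CPM in batch 3, against 242 to 265 CPM (median 260), a log2 fold change of −0.20. TTK, the kinase MPS1 that starts checkpoint signalling, fell by 0.33 on the log2 scale, to 141 to 147 CPM in batch 3, against 167 to 195 CPM. The ratio of BUB1 to BUB1B CPM was 1.17 to 1.23 in batch 3 and 0.699 to 0.760 in batches 1 and 2. CENPE, a kinetochore motor, rose by 0.14, while CENPF, a kinetochore protein, had 0.02 and did not pass.

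The mitotic cyclins split in the same way. CCNB2, the second B-type cyclin, had 148, 133 and 140.4 CPM in batch 3, against 161 to 173 CPM (median 164) in batches 1 and 2, a log2 fold change of −0.23 (SE 0.0476, edgeR adjusted p = 0.00103). There were 6.05 to 6.24 CCNB1 CPM for each CCNB2 CPM in batch 3, against 2.64 to 3.11 in batches 1 and 2. CDK1, the partner of both, fell by 0.14, with 256, 235 and 276 CPM in batch 3 against 268 to 294 CPM, and these ranges overlapped. CCNA2, the cyclin of S phase and G2, had 0.08 and did not pass.

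**Figure D3:**
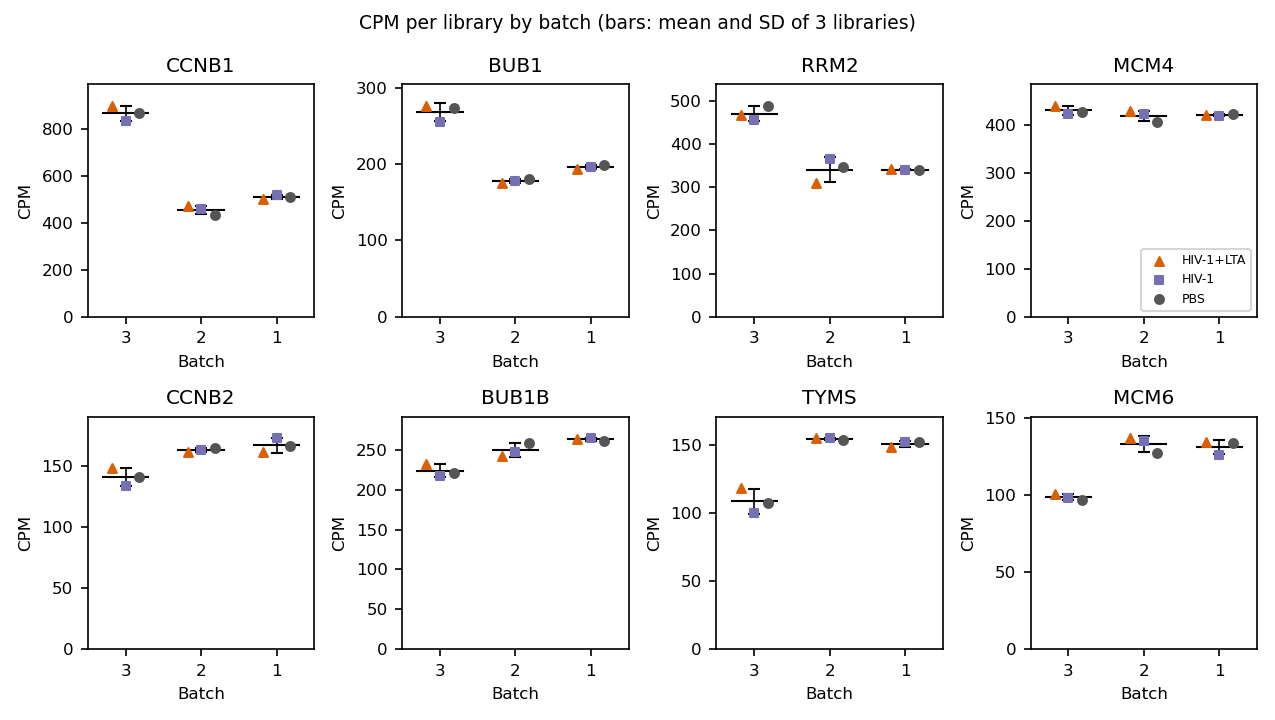
CPM (y axis, from 0) of 4 pairs of genes in each library by batch (x axis); triangles are HIV-1+LTA, squares HIV-1 and circles PBS, and bars the mean and SD of 3 libraries. CCNB1, BUB1 and RRM2 are higher in batch 3 while CCNB2, BUB1B and TYMS are lower, and MCM4 differs little where MCM6 is lower; scaling by library totals alone turns MCM4 to a called fall of 0.12.

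Other genes of spindle assembly and mitotic exit differed in direction. CDC20, which activates the anaphase-promoting complex, had 148 to 153 CPM in batch 3, against 108 to 124 CPM in batches 1 and 2 (log2 0.39). KIF11, the motor that pushes spindle poles apart, had 330 to 354 CPM against 252 to 272 CPM (0.38), and TPX2, which activates AURKA on the spindle, 652 to 673 CPM against 490 to 538 CPM (0.36). MKI67 had 840 to 874 CPM in batch 3, against 617 to 662 CPM (0.43). The ranges of these 4 did not overlap. The kinase PLK1 (0.18), the chromosomal passenger protein BIRC5 (0.17), TOP2A (0.13) and the kinase AURKA (0.12) rose by less, and AURKB (−0.03) and the ubiquitin-conjugating enzyme UBE2C (0.07) did not pass. NUSAP1 fell by 0.36 (edgeR adjusted p = 0.00614).

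Of the 13 replication genes, 9 fell in batch 3, TYMS most. TYMS had 119, 100.3 and 107 CPM in the HIV-1+LTA, HIV-1 and PBS libraries of batch 3, against 149 to 155 CPM (median 153) in batches 1 and 2, and fell by 0.49 on the log2 scale (SE 0.0506, edgeR adjusted p = 2.81e-06). MCM2 had 141, 127 and 105 CPM in batch 3, against 152 to 196 CPM (median 169), and fell by 0.48 (SE 0.0568, edgeR adjusted p = 1.09e-05). MCM6 had 97.0 to 100.4 CPM in batch 3, against 126 to 137 CPM, and fell by 0.42, as did E2F1, with 90.8 to 94.9 CPM against 116 to 133 CPM. None of these ranges overlapped.

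Within the MCM ring the subunits did not move together, although the proteins assemble in equal number. MCM2, MCM6, MCM5 and MCM3 fell by 0.48, 0.42, 0.32 and 0.31, while MCM4 (0.04) and MCM7 (0.07) did not pass. MCM4 had 439, 423 and 426 CPM in batch 3, against 406 to 427 CPM (median 420) in batches 1 and 2. The ratio of MCM4 to MCM6 CPM was 4.31 to 4.39 in batch 3 and 3.12 to 3.31 in batches 1 and 2. RRM2 was the replication gene that rose, with 466, 455 and 488 CPM in batch 3 against 309 to 365 CPM (median 341), a log2 fold change of 0.47 (SE 0.0509, edgeR adjusted p = 5.12e-06). Its ratio to TYMS was 3.93 to 4.55 in batch 3 and 1.99 to 2.36 in batches 1 and 2, although both serve the supply of DNA precursors.

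ASF1B (−0.23), CCNE1 (−0.31) and CCNE2 (−0.25) fell as well, and PCNA had 0.10 (SE 0.0466, edgeR adjusted p = 0.0638) and did not pass. Summed CPM of the 22 G2 and mitosis genes over summed CPM of the 13 replication genes gave 2.98 to 3.05 in batch 3, against 2.22 to 2.53 in batches 1 and 2, a description without a test. The replication sums overlapped, at 2536 to 2685 CPM in batch 3 and 2622 to 2786 CPM in batches 1 and 2. The G2 and mitosis sums did not, at 7554 to 8086 against 6189 to 6636 CPM. CCNB1 and KIF20A, with the rises given above, weigh in the latter sum. Ranges of libraries did not overlap for 24 members, 12 above (30.6% of all genes) and 12 below (30.2% of all genes; 60.8% either way). Of the replication genes 1 was above, 8 were below and 4 overlapped; of the G2 and mitosis genes 11 were above, 4 below and 7 overlapped.

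**Figure D4:**
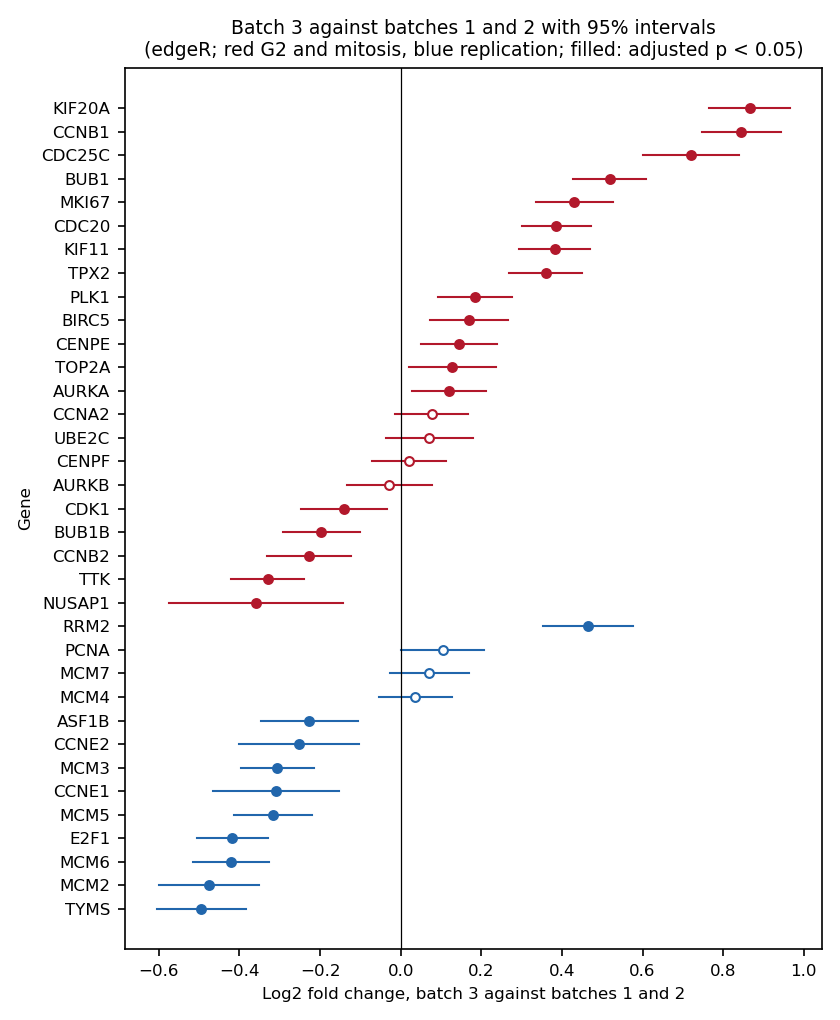
Log2 fold change (x axis) of each of the 35 genes (y axis) in batch 3 against batches 1 and 2 with 95% intervals from the edgeR fit; red marks G2 and mitosis genes, blue replication genes, and filled points an adjusted p below 0.05. KIF20A at 0.87 and CCNB1 at 0.85 lead the 14 filled points above 0, and TYMS at −0.49 and MCM2 at −0.48 the 14 below. With library totals alone 9 of the 35 genes rise (26.5% of all genes) and 17 fall (45.7% of all genes). MCM4, MCM7, PCNA, TOP2A, CCNA2, AURKA, CENPE, CENPF and UBE2C then turn negative.

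Of the 28 calls in batch 3, 19 (9 higher and 10 lower) were made in every one of 16 settings run. The other 9 were lost in at least 1, and the library left out decided some of them: CCNE2, CDK1 and NUSAP1 did not pass without HIV-1 replicate 3 (−0.15, −0.08 and −0.26, edgeR adjusted p = 0.0801, 0.222 and 0.0728), CDK1 also not without HIV-1 replicate 1 (−0.12, 0.0563). CENPE did not pass without HIV-1+LTA replicate 3 (0.13, edgeR adjusted p = 0.0633). TOP2A (0.11 to 0.12) and AURKA (0.08 to 0.13) did not pass in edgeR without PBS replicate 2, PBS replicate 3 or HIV-1+LTA replicate 3; TOP2A also not without HIV-1 replicate 2, and AURKA not without HIV-1 replicate 1. PCNA passed as higher without HIV-1 replicate 2, HIV-1 replicate 3 or HIV-1+LTA replicate 1 (0.11 to 0.15, edgeR adjusted p = 0.0331 to 0.0411). With library totals in place of TMM scaling, the median of all genes moved by −0.16, 26.5% of all genes rose and 45.7% fell, and 9 members rose and 17 fell. MCM4, MCM7, PCNA, TOP2A, CCNA2, AURKA, CENPE, CENPF and UBE2C, all above 0 with TMM, were then below 0, of which MCM4 (−0.12) and CENPF (−0.14) passed.

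Some genes outside the cell cycle moved with batch 3 by more than any member. The 12 stellate cell markers were mixed in direction. Of the 10 that were tested, 4 rose, 3 fell and 3 did not pass, with a median log2 fold change of −0.07. VIM had 2451 to 3128 CPM in batch 3 against 539 to 793 CPM in batches 1 and 2. LOX had 948 to 1236 against 122 to 193 CPM, and COL1A2 271 to 323 against 33.2 to 41.1 CPM, whereas COL3A1 had 146 to 273 against 389 to 724 CPM. The summed level of the 12 was 7823 to 9763 CPM in batch 3 and 4444 to 6217 CPM in batches 1 and 2. T-cell markers summed to 621 to 993 CPM in batch 3 and 657 to 832 CPM otherwise, nearly all from IL7R. CD2 was at 0 in all 9 libraries and CD3D, CD3E, CD3G and LCK at 0 in 6, 7, 8 and 6 of them. CD4 had 1.36 to 18.2 CPM, and CD8A and TRAC were counted in every library at below 1 CPM. Of the 4 T-cell markers that were tested, 2 fell in batch 3 (36% of all genes did), 0 rose and 2 did not pass. Sums of macrophage markers (1.78 to 2.32 CPM against 1.43 to 2.87), hepatocyte markers (0.460 to 1.30 CPM against 1.13 to 2.01) and endothelial markers (3.36 to 4.46 CPM against 8.76 to 10.9) were low throughout. Mitochondrially encoded RNAs summed to 12642 to 15004 CPM in batch 3 and 10704 to 14532 CPM in batches 1 and 2. The TMM scaling factor was 0.899 to 0.958 in batch 3 and 1.01 to 1.08 in the other libraries. The part of these differences in the members' values was not tested.

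Batches 1 and 2 were close to each other. In batch 2 against batch 1 no member passed and 0.031% of all genes did (5 genes, all higher; DESeq2 called 0.68% higher, 0.236% lower and 0.916% in all, and no member). At an unadjusted p below 0.05 stood 10 members, beside 11.6% of all genes. MCM2 was the farthest, with 178 to 196 CPM in batch 2 against 152 to 160 CPM in batch 1 (log2 0.26, SE 0.0639, edgeR adjusted p = 0.211), and CCNB1 had 435 to 473 CPM against 500 to 521 CPM (−0.17, edgeR adjusted p = 0.298). Of the replication genes 10 of 13 had values above 0 and of the G2 and mitosis genes 19 of 22 below 0, and the ratio of their summed CPM was 2.22 to 2.38 in batch 2 and 2.45 to 2.53 in batch 1.

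RefSeq promoters of 300 bases (250 before and 50 after the start, GRCh38.p14) were found for 27 of the 35 members, 10 of replication and 17 of G2 and mitosis. An E2F site as spelled above was found in 7 of the 10 replication promoters and in 2 of the 17 others, against 3.31% of 35116 promoters in all. A CHR spelled TTTGAA, the only spelling searched, stood in 1 of 10 and 10 of 17, against 15.2%. A CCAAT box stood in 7 of 10 and 14 of 17, against 34.6%. Set against the batches, an E2F site was found in 0 of the 11 matched members that rose in batch 3, in 7 of the 11 that fell, and in 2 of the 5 that did not pass. A CHR of that spelling was found in 5 of 11 that rose and in 5 of 11 that fell. Of the 7 that fell with an E2F site, CDK1 and NUSAP1 are genes of G2 and mitosis, and neither call held in every setting. RRM2, the replication gene that rose, had none in this window. ASF1B, CCNE1, CCNB2 and BUB1B fell without such a site, and MCM7 and PCNA hold such a site but did not pass. The part of these sites in the direction of change was not tested. Letters alone do not show a working site.

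**Figure D5:**
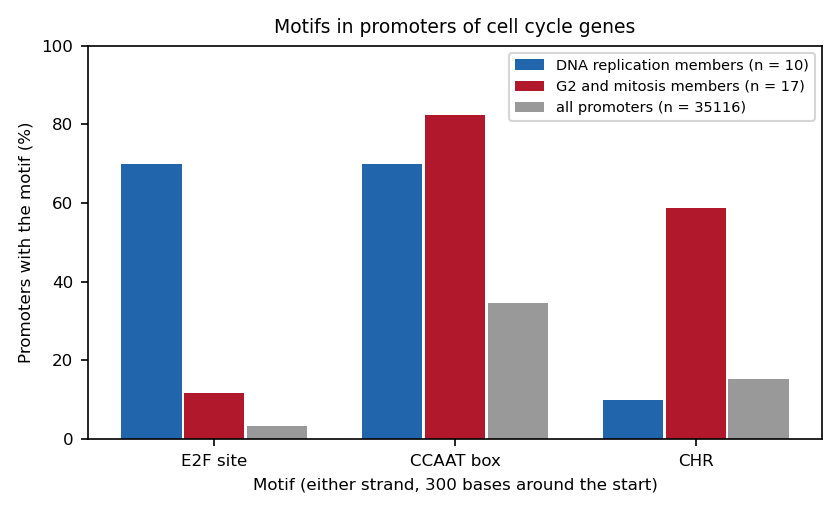
Share of promoters (y axis, percent) that hold an E2F site, a CCAAT box or a CHR on either strand within 300 bases around the start (x axis), for 10 replication members, 17 G2 and mitosis members and 35116 promoters in all. E2F sites stand in 70% of the replication promoters against 11.8% of the mitotic ones, and the CHR (as TTTGAA) in 10% against 58.8%.

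A further 169 genes of the cell cycle, in 12 lists, gave the wider picture. In batch 3 against batches 1 and 2, 70 rose, 61 fell and 38 did not pass. Among the 10 G1 cyclins and kinases 6 rose and 3 fell. CCND1, the D-type cyclin that answers growth signals, had 638 to 913 CPM in batch 3 against 155 to 412 CPM in batches 1 and 2 (log2 1.40), and CCND2 had 7.03 to 7.96 against 0.315 to 0.545 CPM (4.07). MYC, a growth-promoting transcription factor, rose by 0.85 and CDC25A fell by 0.37. Of the 8 CDK inhibitors 4 rose and 1 fell: CDKN1A, the p53 target p21, had 13.0 to 20.2 CPM in batch 3 against 34.4 to 69.1 CPM (−1.34), while CDKN1C rose (2.06) at a level below 1 CPM.

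Among the lists of DNA synthesis, 11 of 21 fork enzymes fell and 6 rose (POLE2, a subunit of polymerase epsilon, rose by 1.12 and POLD2 of polymerase delta fell by 0.91), and 7 of 19 licensing genes fell and 6 rose (ORC6 fell by 0.72, MCM10 rose by 0.59). Of 9 genes of deoxynucleotide supply 4 rose and 3 fell: CAD, of pyrimidine synthesis, rose by 0.72 and DTYMK, the thymidylate kinase, by 0.57, while DUT, which clears dUTP, fell by 1.04 with 65.8 to 73.7 CPM in batch 3 against 143 to 149 CPM. Of 7 genes of chromatin assembly 1 rose and 3 fell, among them the histone mRNA binder SLBP, by 1.07 with 71.0 to 77.5 against 153 to 160 CPM. Of 18 RB, E2F and DREAM genes 6 rose and 10 fell, E2F5 most (−1.41). Of the mitotic lists, 9 of 14 checkpoint genes and kinases rose and 3 fell (BUB3 0.80), 10 of 19 motors and cytokinesis genes rose and 5 fell (DLGAP5 0.70), and 8 of 12 condensin, cohesin and separase genes rose and 1 fell (PTTG1, securin, 0.81). Among kinetochore genes 5 of 18 rose and 8 fell, and among genes of the anaphase-promoting complex 5 of 14 rose and 6 fell. Each list is read beside 35.2% of all genes higher and 36% lower.

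By treatment none of the 169 genes passed in edgeR. All 8 CDK inhibitors had values above 0 in HIV-1+LTA against HIV-1 (median 0.15, beside 7878 of 16117 genes above 0) and against PBS (median 0.12, beside 8119 of 16117), with none passing. CDKN1A had 34.8, 69.1 and 20.2 CPM in HIV-1+LTA libraries of batches 1, 2 and 3, against 35.4, 35.4 and 14.5 CPM in HIV-1 libraries and 34.4, 34.5 and 13.0 CPM in PBS libraries. The HIV-1+LTA library of batch 2 stood highest, and in batch 1 the treatments were close. CDKN1A had log2 fold changes of 0.49 and 0.57 in these comparisons (edgeR adjusted p = 0.206 and 0.205). DESeq2 called CCNG1 and CCNG2, both cyclin G genes linked to growth arrest, higher with LTA over HIV-1 alone (0.28 and 0.41), where edgeR gave 0.27 and 0.40 at adjusted p = 0.171 for both.

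The ChIP-seq of the series has 1 PBS and 1 HIV-1 library, whose cell line labels read Lx3 and Lx5 while the titles give Lx2. The deposited list holds 166 peaks of 181 to 430 bases, with no value per peak, and the labels name no antibody. KIF11 was the only member with a peak inside the gene: an intronic interval of 269 bases at chr10:94352131-94352399 on hg19, 18.3 kb past the gene's start. KIF11 had 272, 259 and 354 CPM in the HIV-1+LTA libraries of batches 1, 2 and 3, against 265, 252 and 330 CPM in HIV-1 libraries and 268, 270 and 350 CPM in PBS libraries, and its log2 fold change in HIV-1 against PBS was −0.07 (SE 0.0470, edgeR adjusted p = 0.946).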

How the data were processed

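RNA-seq of LX-2 cells gave 9 libraries, 3 for each of HIV-1+LTA, HIV-1 and PBS. The authors' deposited table of raw counts, with 1 row for each gene symbol, was made with fastp, STAR, SAMtools and HTSeq on hg19 per the submitters' processing notes; versions, strand setting and annotation release are not given in the sources used here. The authors' deposited DESeq2 table holds a mean signal per gene, log2 fold changes, a Wald score, p-values and adjusted p-values, without naming the comparison in its header. Peaks were made with Bowtie2 and MACS, per the series' design text.

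The 35 members and the further lists were chosen with earlier results of these data known. All 35 members are named; of every other list, up to 4 genes that passed with the largest change are eligible, or up to 2 with the lowest p where none passed; the other genes of those lists and the marker genes named were chosen after their values were seen. Counts were tested with edgeR 4.0.16 (R 4.3.3) after filterByExpr and TMM scaling, with batch and group as terms and p-values adjusted over 16117 genes at 0.05. CPM use TMM-scaled library sizes, and log2 CPM a prior count of 2. The batch term is in the main fit because the labels name the replicate number as the batch. Deviations from group means correlated at 0.70 to 0.92 over 9 pairs of the same number and at −0.84 to 0.76 over 18 pairs of different numbers. Between batches 1 and 2, pairs of different numbers were at 0.68 to 0.76, and same-number pairs within those batches at 0.70 to 0.78. These values thus set batch 3 apart and do not show pairing by number within batches 1 and 2. No libraries agreed within sampling noise, with a chi-square per degree of freedom of at least 3.8. Fold changes of batch 3 are against the mean of batches 1 and 2. Alternatives were DESeq2 1.42.0 (total count of at least 10), limma 3.58.1 voom, RLE scaling, library totals, no filter, a mean of at least 1 CPM, no batch term, the libraries of the pair compared alone, and each library or batch left out. The fit was tested on simulated data. Total counts of 50.6 to 90.6 M per library set the precision, and intervals are the fit's 95% intervals.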

Additional observations from a re-analysis of the deposited data

How the results depend on the processing

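In the 3 treatment comparisons, without the replicate block 0 members and 0 genes passed. In HIV-1+LTA against HIV-1, DESeq2 called 1 member higher (ASF1B), with 179 genes higher and 65 lower, and without a filter 1 member, with 580 and 436. In HIV-1+LTA against PBS, DESeq2 called 118 genes higher and 118 lower, and without a filter 2 members (MCM2 and ASF1B) passed, with 519 genes higher and 526 lower. In HIV-1 against PBS, DESeq2 gave 1 higher and 2 lower, no filter 13 and 17, and the 6 libraries alone 2 lower. Leaving out a library or batch gave 0 to 2 members higher, 0 to 1155 genes higher and 0 to 1235 lower in HIV-1+LTA against HIV-1; 0 to 2 members, 0 to 1237 and 0 to 1411 genes in HIV-1+LTA against PBS; and 0 to 2 and 0 to 3 genes in HIV-1 against PBS. For batch 3 against batches 1 and 2, library totals gave 9 members higher (26.5% of all genes) and 17 lower (45.7% of all genes). This scaling reversed MCM4 (−0.12), TOP2A (−0.032), AURKA (−0.041), CENPE (−0.014) and CENPF (−0.14). It took PLK1 (0.03) and BIRC5 (0.01) below the threshold and AURKB (−0.19) past it. Left-out libraries gave 11 to 15 members higher, 11 to 14 lower, 5137 to 5811 genes higher and 5145 to 5946 lower. Without the replicate block ASF1B (−0.22, edgeR adjusted p = 0.0579) and TOP2A (0.13, 0.0780) did not pass. The log2 ratio of mitosis to replication sums, 0.33 higher in batch 3, was 0.58 with medians. In batch 2 against batch 1 the count of genes higher was 2 without the replicate block, 78 in DESeq2 (27 lower), 8 in voom and 270 without a filter (62 lower, and MCM2 higher, 1 member); left-out libraries gave 1 to 149 higher and 0 to 65 lower. Where a result changed, the cause was not tested. Some settings had fewer libraries or other genes in the fit, and the part of that was not tested either. Depth limits NUSAP1 and CCNE1 most, the members with the fewest counts.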
